A study of Mus musculus with 6 samples.

Results

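Chemokine and positioning receptors are the surface receptors with which a B cell reads guidance signals in lymphoid tissue. The receptors examined here were Cxcr5, Ccr7, Cxcr4, Ccr6, Gpr183, S1pr1, S1pr4, P2ry8, Cnr2 and Cxcr3. They were listed by name, with earlier results of these data known. Of these 10 receptors, 9 were measured, each by a single probe set that names only that gene, among 19935 genes in all. P2ry8, whose role in B cell confinement is known from human, has no entry in the annotation used and was not analysed here.

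The study compared B cells that lack the tetraspanin Cd37 with normal B cells. The CD37KO mice carried a Cd37 deficiency and the WT mice were their wild-type littermates, all on a C57BL/6J background and 3 months old per the labels. No agent was given to either group. Spleen B cells, labelled as negative for CD43 and positive for B220, were taken from 3 CD37KO and 3 WT mice, labelled as biological replicates. The paper isolated B cells by negative selection with CD43 beads and used B220 staining to check purity. RNA of the cells was hybridised to Affymetrix mouse gene arrays. The sample is a bulk population of follicular, marginal zone and other B cells, and markers of macrophages and neutrophils were also above background. A lower share of one cell type and less RNA per cell of that type therefore cannot be told apart. Nor can a different share of cells other than B cells. The Cd37 deficiency is not limited to B cells, so the B cells came from mice in which other cells that use Cd37 also lacked it.

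All of these receptors couple to G proteins, and their ligands lay out the compartments of the spleen. Cxcr5 leads B cells to Cxcl13 in the follicle, Ccr7 to Ccl19 and Ccl21 at the border of the T cell zone, and Cxcr4 to Cxcl12. Gpr183 (EBI2) follows oxysterols to the outer follicle, while S1pr1 reads sphingosine-1-phosphate, which marks blood and lymph and helps to hold marginal zone B cells in place. Much of the control of these receptors acts on the protein at the cell surface, which an RNA array does not measure.

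None of the 9 measured receptors passed the test for a difference between CD37KO and WT B cells. Adjusted p-values ranged from 0.801 to 0.968 (limma, Benjamini-Hochberg over all genes), beside 0.0552% of all genes with an adjusted p under 0.05 in either direction (11 genes, 5 higher and 6 lower). At an unadjusted p under 0.05, the count was also 0 of 9 receptors, beside 5.95% of all genes. The largest difference was 0.161 on the log2 scale, and the 95% intervals of all 9 receptors lay within a log2 difference of -0.372 to 0.303, which is a CD37KO over WT ratio of 0.773 to 1.233. Those bounds are the outermost of the 9 intervals, and what 3 arrays a group could show differed by receptor. The check on the genotype labels was clear: Cd37 read 8.15, 8.17 and 8.17 (log2) in CD37KO arrays, against 11.99, 11.82 and 12.08 in WT arrays (log2 difference -3.80, SE 0.076, adjusted p = 1.37e-07).

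Of the 9 receptors, 8 were above background in every array, where background (5.76, log2) is the 95th percentile of olfactory receptor gene levels. Cxcr3 lay at that line. Levels are log2 values of different probe sets and are compared between groups only, never between receptors.

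**Figure D1:**
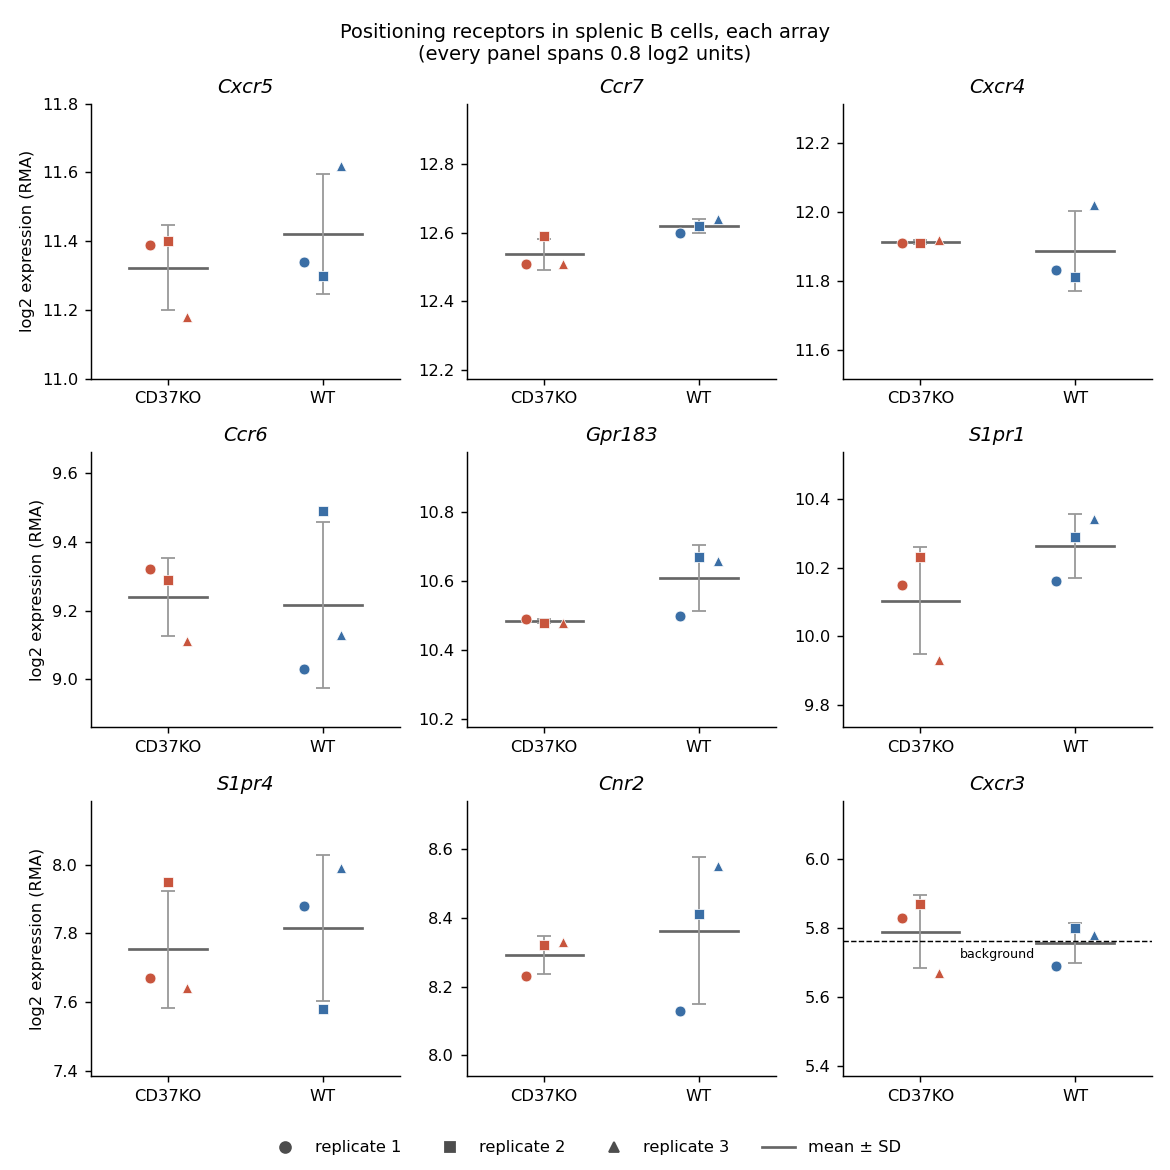
Log2 expression (RMA) of each receptor in the 3 CD37KO arrays (red, left) and the 3 WT arrays (blue, right) of every panel. Symbols give the replicate, bars the mean ± SD, and the dashed line background. All panels span the same range of log2 units; the groups overlap in 7 panels and stand apart by 0.008 and 0.005 in those of Ccr7 and Gpr183.

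Among the receptors for follicle and T zone chemokines, Cxcr5 read 11.39, 11.40 and 11.18 in CD37KO arrays, against 11.34, 11.30 and 11.62 in WT arrays. The lowest value was that of CD37KO replicate 3 and the highest that of WT replicate 3, with the other 4 arrays between them, where CD37KO replicates 1 and 2 were above WT replicates 1 and 2. The log2 difference of Cxcr5 was -0.10 (SE 0.103, adjusted p = 0.859, limma), with a 95% interval from -0.33 to 0.14. Without WT replicate 3 it was 0.0056.

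Ccr7, which takes activated B cells to the edge of the T cell zone, read 12.51, 12.59 and 12.51 in CD37KO arrays, against 12.60, 12.62 and 12.64 in WT arrays. Every CD37KO array was below every WT array, but the gap between the groups was only 0.008. The log2 difference was -0.08 (SE 0.059, adjusted p = 0.814, limma), a ratio of 0.945 with a 95% interval from 0.860 to 1.04. Of all genes, 7.57% had every CD37KO array below every WT array, and 4.33% the reverse. Ccr7 and Gpr183 were the 2 receptors of the first kind, and 0 were of the second. An exact permutation test of 3 arrays against 3 cannot go below p = 0.10, two-sided, which is the value both receptors had.

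Cxcr4, the receptor for Cxcl12, which retains B cell precursors in bone marrow and sorts germinal centre B cells, gave nearly the same value in all CD37KO arrays. It read 11.91, 11.91 and 11.92 in CD37KO arrays, against 11.83, 11.81 and 12.02 in WT arrays. The CD37KO arrays lay inside the WT range. Cxcr4 had a log2 difference of 0.03 (SE 0.072, adjusted p = 0.947, limma), with a 95% interval from -0.14 to 0.19.

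Ccr6, the receptor for Ccl20, a chemokine of mucosal and inflamed sites, varied most among WT arrays. It read 9.32, 9.29 and 9.11 in CD37KO arrays, against 9.03, 9.49 and 9.13 in WT arrays. The means were 9.24 ± 0.111 in CD37KO and 9.21 ± 0.242 in WT (SD, n = 3 each). WT replicates 1 and 2 were the lowest and the highest of all 6 arrays. Leaving out WT replicate 2 gave a log2 difference of 0.16 in place of 0.03, and leaving out WT replicate 1 gave -0.07, none of them with an adjusted p under 0.05 (limma).

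Cxcr3, the receptor for Cxcl9, Cxcl10 and Cxcl11 on memory B cells, T cells and NK cells, was near background. It read 5.83, 5.87 and 5.67 in CD37KO arrays, against 5.69, 5.80 and 5.78 in WT arrays, above the line in 4 of the 6. The log2 difference was 0.03 (SE 0.073, adjusted p = 0.940, limma). RMA draws values near background together, so a change in Cxcr3 RNA could be larger than the array shows.

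Gpr183 was the most even of the receptors in CD37KO arrays. It read 10.49, 10.48 and 10.48 in CD37KO arrays, against 10.50, 10.67 and 10.66 in WT arrays. WT replicate 1 was at the level of the CD37KO arrays, 0.005 above the highest of them, while WT replicates 2 and 3 were higher. Gpr183 had a log2 difference of -0.12 (SE 0.068, adjusted p = 0.801, limma), a ratio of 0.918 with a 95% interval from 0.825 to 1.02. Without WT replicate 1 it was -0.18, with an unadjusted p of 0.0389 (limma).

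S1pr1 had the largest difference of the receptors. It read 10.15, 10.23 and 9.93 in CD37KO arrays, against 10.16, 10.29 and 10.34 in WT arrays. Only CD37KO replicate 3 was far below the WT arrays, and of the 9 possible CD37KO and WT pairs, CD37KO was higher in 1. The log2 difference was -0.16 (SE 0.092, adjusted p = 0.801, limma), a ratio of 0.894 with a 95% interval from 0.773 to 1.04. Without CD37KO replicate 3 the difference was -0.07. Without CD37KO replicate 2 it was -0.23, with an unadjusted p of 0.0459 (limma).

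S1pr4, a second sphingosine-1-phosphate receptor of lymphocytes, had no such offset. It read 7.67, 7.95 and 7.64 in CD37KO arrays, against 7.88, 7.58 and 7.99 in WT arrays. High and low arrays were found in both groups, and the log2 difference was -0.07 (SE 0.123, adjusted p = 0.915, limma). Its 95% interval, from -0.35 to 0.21, was the widest of the 9 receptors.

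Cnr2, the cannabinoid receptor of immune cells, which helps to keep marginal zone B cells in the spleen, read 8.23, 8.32 and 8.33 in CD37KO arrays, against 8.13, 8.41 and 8.55 in WT arrays. The CD37KO arrays again lay inside the WT range. The means were 8.29 ± 0.055 in CD37KO and 8.36 ± 0.216 in WT (SD, n = 3 each), a log2 difference of -0.07 (SE 0.105, adjusted p = 0.901, limma). This difference was 0.08 when arrays were weighted by their quality.

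**Figure D2:**
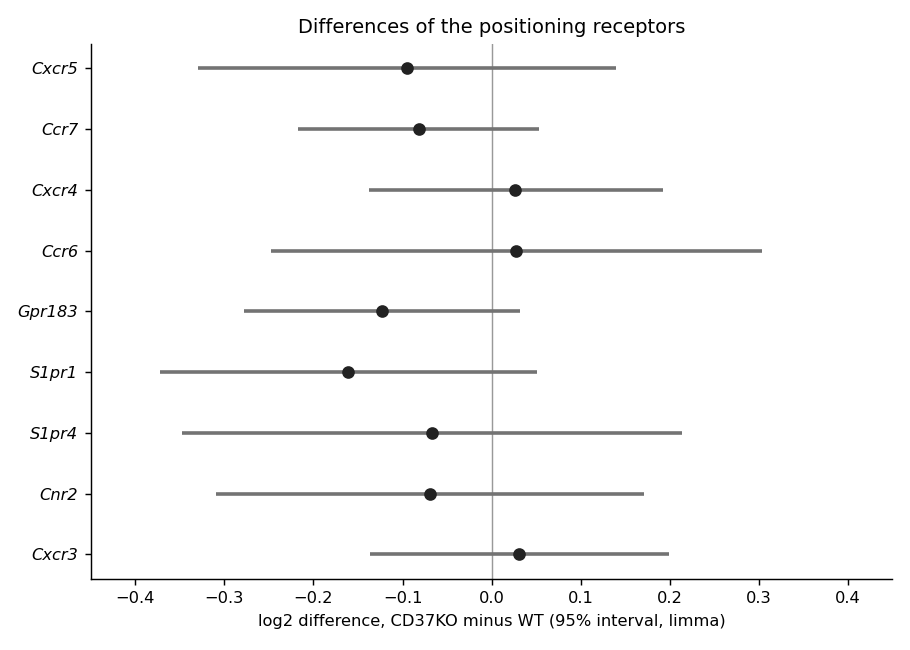
Log2 difference of each receptor, CD37KO minus WT (points), with its 95% interval from limma (lines). All 9 intervals cross 0; they reach from -0.372 (S1pr1) to 0.303 (Ccr6).

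The mean was lower in CD37KO for 6 receptors and higher for 3. Over all genes the mean was lower in CD37KO for 58.2%. The median log2 difference of the receptors was -0.07, beside -0.02 over all genes and 0.02 over the 9880 genes above background in every array. In size, with signs removed, their median difference was 0.070, beside 0.065 over all genes and 0.068 over the genes above background.

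Single arrays set much of the spread, while the median over all probe sets was 6.04 to 6.08 in CD37KO arrays and 6.01 to 6.10 in WT arrays. From the lowest to the highest of the 6 arrays, the receptors spanned 0.13 (Ccr7) to 0.46 (Ccr6) log2 units. The median span of the 8 receptors above background was 0.41, beside 0.28 for all genes above background. WT replicate 3 had the highest value for 6 of the 9 receptors and CD37KO replicate 3 the lowest for 4. The mean log2 level of the 8 receptors above background was 10.21, 10.27 and 10.14 in CD37KO arrays, against 10.18, 10.27 and 10.37 in WT arrays. These means overlapped between the groups, with WT replicate 3 alone above the CD37KO arrays.

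The mean levels of the B cell marker lists overlapped between the groups, while some single markers did not. All 10 measured mature B cell markers were above background in every array, with a mean log2 level of 11.56 to 11.60 in CD37KO and 11.56 to 11.63 in WT. Follicular B cell markers averaged 10.93 to 11.00 in CD37KO and 10.94 to 10.99 in WT. For marginal zone B cell markers, which include Cr2 and the sphingosine-1-phosphate receptor S1pr3, the means were 8.93 to 9.08 in CD37KO and 8.95 to 9.11 in WT. Of the mature B cell list, Btk, a kinase of B cell receptor signalling, was lower in every CD37KO array at 10.18, 10.19 and 10.09, against 10.34, 10.53 and 10.29 in WT arrays (log2 difference -0.23, unadjusted p = 0.0161, adjusted p = 0.801, limma). Of the marginal zone list, Plxnd1 read 7.77, 8.04 and 8.10 in CD37KO arrays, against 8.26, 8.22 and 8.45 in WT arrays (log2 difference -0.34, unadjusted p = 0.00967, adjusted p = 0.801, limma). Dtx1 of that list was also lower in every CD37KO array. Going the other way, Fcmr of the mature B cell list was higher in every CD37KO array. So was Il4ra of the follicular list, by a gap of 0.001. Over all genes, 7.57% had every CD37KO array below every WT array, and 4.33% the reverse. No gene of these 3 lists had an adjusted p under 0.05, and the part of these markers in the receptor values was not tested.

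Other genes of the pathway were taken from 5 lists with 102 genes, of which 97 were measured. No gene of these lists had an adjusted p under 0.05 (limma, lowest 0.801). At an unadjusted p under 0.05, 2 genes were higher in CD37KO and 1 was lower, beside 2.96% of all genes higher and 2.99% lower. Without CD37KO replicate 2 these counts were 8 higher and 7 lower, and without WT replicate 2 they were 2 and 3. The shares over all genes in those fits are not given here, so these counts have no share beside them. The median log2 difference of the 97 genes was -0.03. Every CD37KO array was above every WT array for 2 of the 97 genes and below for 5, beside 4.33% of all genes above and 7.57% below.

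**Figure D3:**
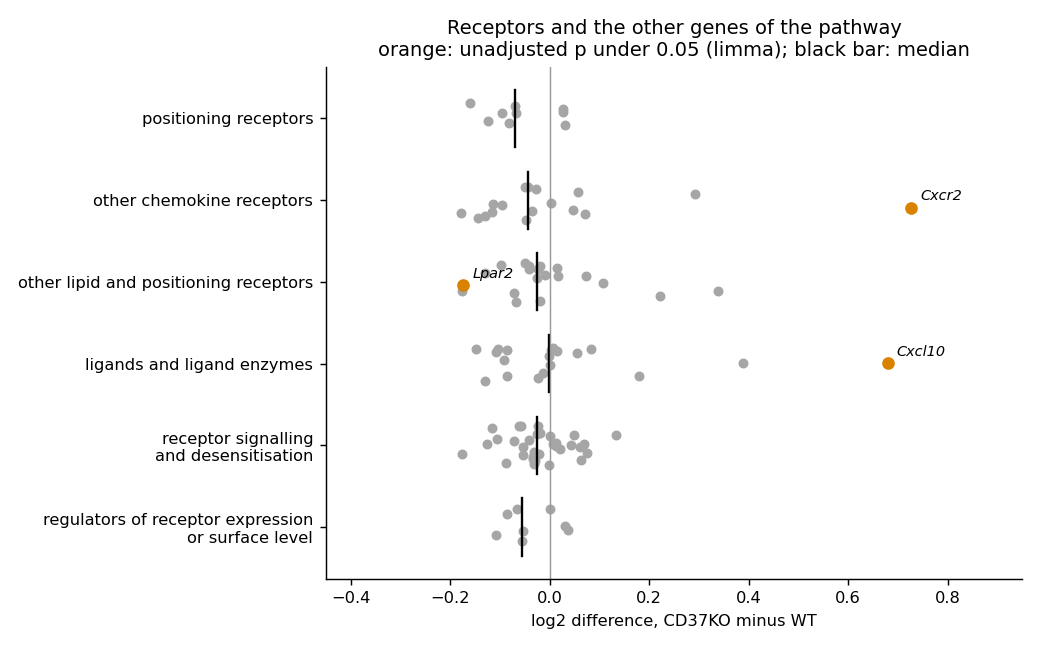
Log2 difference, CD37KO minus WT, of each measured receptor and of the other pathway genes by list (points, spread vertically for legibility), with the median of each list as a black bar. Orange points have an unadjusted p under 0.05 (limma): Cxcr2 and Cxcl10 were higher in CD37KO and Lpar2 was lower.

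The first list held the other chemokine receptors, most of which serve myeloid cells, T cells or endothelium. Of 17 measured, 3 were above background in every array and 10 were below it in every array, and the median log2 difference was -0.04. Cxcr2, the neutrophil receptor for Cxcl1 and related chemokines, read 6.96, 5.78 and 6.07 in CD37KO arrays, against 5.67, 5.30 and 5.66 in WT arrays. It was above background in the 3 CD37KO arrays only, CD37KO replicate 2 just so. Its log2 difference was 0.73 (SE 0.267, unadjusted p = 0.0254, adjusted p = 0.801, limma), and without CD37KO replicate 1 it was 0.38.

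Beside Cxcr2, the 13 neutrophil markers, a list that includes Cxcr2 itself, had a mean log2 level of 7.84, 6.49 and 7.14 in CD37KO arrays, against 6.13, 5.94 and 6.19 in WT arrays. The log2 of their summed level was 10.87 to 12.50 in CD37KO and 9.95 to 10.28 in WT. Of the 13, 12 were higher in CD37KO at an unadjusted p under 0.05 (limma), beside 2.96% of all genes. At an adjusted p under 0.05 the count was 0, beside 0.0552% of all genes in either direction. The log2 differences of the 13 ran from 0.28 (Elane, unadjusted p = 0.0620, limma) to 2.07 (Ngp). Ngp, a protein of neutrophil granules, read 11.09, 9.48 and 10.56 in CD37KO arrays, against 8.34, 8.13 and 8.46 in WT arrays. The order of the CD37KO arrays was the same for Cxcr2 and Ngp, and the part of neutrophil RNA in the Cxcr2 values was not tested.

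Ccr3, chosen after its values were seen, had the widest spread among the other chemokine receptors. It read 9.54, 7.82 and 9.82 in CD37KO arrays, against 9.53, 8.90 and 8.84 in WT arrays. CD37KO replicates 1 and 3 and WT replicate 1 were high in it. The same 3 arrays were high in the mean log2 level of the 14 macrophage and monocyte markers. This mean was 9.16, 8.12 and 9.16 in CD37KO arrays, against 9.05, 8.38 and 8.47 in WT arrays. Lyz2, Cx3cr1 and Ccr2 of the list did not follow this order. Lyz2 read 9.66, 9.19 and 8.95 in CD37KO arrays, against 9.10, 8.66 and 8.30 in WT arrays. It was the 1 gene of the list higher in CD37KO at an unadjusted p under 0.05 (limma), beside 2.96% of all genes. Cx3cr1 and Ccr2 were highest in WT replicate 3. The log2 of the summed level of the 14 markers was 12.44 to 13.73 in CD37KO and 12.74 to 13.53 in WT. Of the 14, 11 were above background in every array, with Ccr2 below it. Spic, a transcription factor of red pulp macrophages, read 9.38, 7.89 and 9.31 in CD37KO arrays, against 9.19, 8.28 and 8.40 in WT arrays. The part of macrophage RNA in the Ccr3 values was not tested.

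The purinergic receptor P2ry13, also chosen after its values were seen, had a like order. It read 8.56, 7.71 and 8.96 in CD37KO arrays, against 8.72, 7.64 and 8.20 in WT arrays. None of the 9 positioning receptors had its highest value in any of CD37KO replicate 1, CD37KO replicate 3 and WT replicate 1. The lowest value was in CD37KO replicate 3 for 4 receptors, in WT replicate 1 for 2 and in CD37KO replicate 1 for 0. The part of macrophage RNA in the receptor values was not tested.

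In the list of other lipid and positioning receptors, 20 were measured, 13 were above background in every array, and the median log2 difference was -0.03. Lpar2, a receptor for lysophosphatidic acid, read 6.57, 6.67 and 6.60 in CD37KO arrays, against 6.70, 6.85 and 6.82 in WT arrays. All CD37KO arrays were below all WT arrays, by 0.030 at the nearest, and the log2 difference was -0.17 (SE 0.067, unadjusted p = 0.0303, adjusted p = 0.801, limma). The unadjusted p of Lpar2 stayed under 0.05 in 8 of 14 alternatives, that of Cxcr2 in 10 of 13 and that of Cxcl10 in 14 of 14. Gpr174, a lysophosphatidylserine receptor of B and T cells, also stood without overlap at 9.21, 9.24 and 9.30 in CD37KO arrays, against 9.32, 9.32 and 9.50 in WT arrays (adjusted p = 0.801, limma).

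S1pr2, the sphingosine-1-phosphate receptor that confines germinal centre B cells, varied by array, with overlapping groups. It read 6.50, 5.95 and 6.82 in CD37KO arrays, against 5.81, 6.63 and 5.81 in WT arrays. Rgs13, a regulator of G protein signalling in germinal centre B cells, read 8.87, 8.50 and 9.07 in CD37KO arrays, against 8.66, 9.29 and 8.58 in WT arrays. CD37KO replicates 1 and 3 and WT replicate 2 were the high arrays for both genes. Gpr174, S1pr2 and Rgs13 were chosen after their values were seen.

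Ligands and ligand enzymes made up 19 genes, 12 of them above background in every array, with a median log2 difference near 0 (-0.001). Cxcl10, an interferon-induced ligand of Cxcr3, read 7.17, 6.68 and 7.38 in CD37KO arrays, against 6.43, 6.21 and 6.55 in WT arrays. All CD37KO arrays were above all WT arrays. The log2 difference was 0.68 (SE 0.168, a ratio of 1.60 with a 95% interval from 1.23 to 2.09), with an unadjusted p of 0.00342 and an adjusted p of 0.801 (limma). In both groups replicate 3 was the highest and replicate 2 the lowest. Replicate 2 was also the lowest of each group in the mean of the neutrophil and of the macrophage and monocyte markers. Replicate 3 was not always the highest in them. CD37KO replicate 1 was the highest of its group in neutrophil markers, and WT replicate 1 of its group in macrophage markers. Cxcl10 is made by macrophages as well as by other cells, and its source in these arrays was not tested.

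Genes for signals that stromal cells make were near or below background. Cxcl13 averaged 6.05 ± 0.130 in CD37KO and 6.20 ± 0.097 in WT (SD, n = 3 each), while Cxcl12 was below background in every array at 5.66 ± 0.051 in CD37KO and 5.67 ± 0.017 in WT. Ch25h, which starts the synthesis of the oxysterol that Gpr183 binds, averaged 4.61 ± 0.025 in CD37KO and 4.64 ± 0.042 in WT. These 3 genes, too, were chosen after their values were seen.

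**Figure D4:**
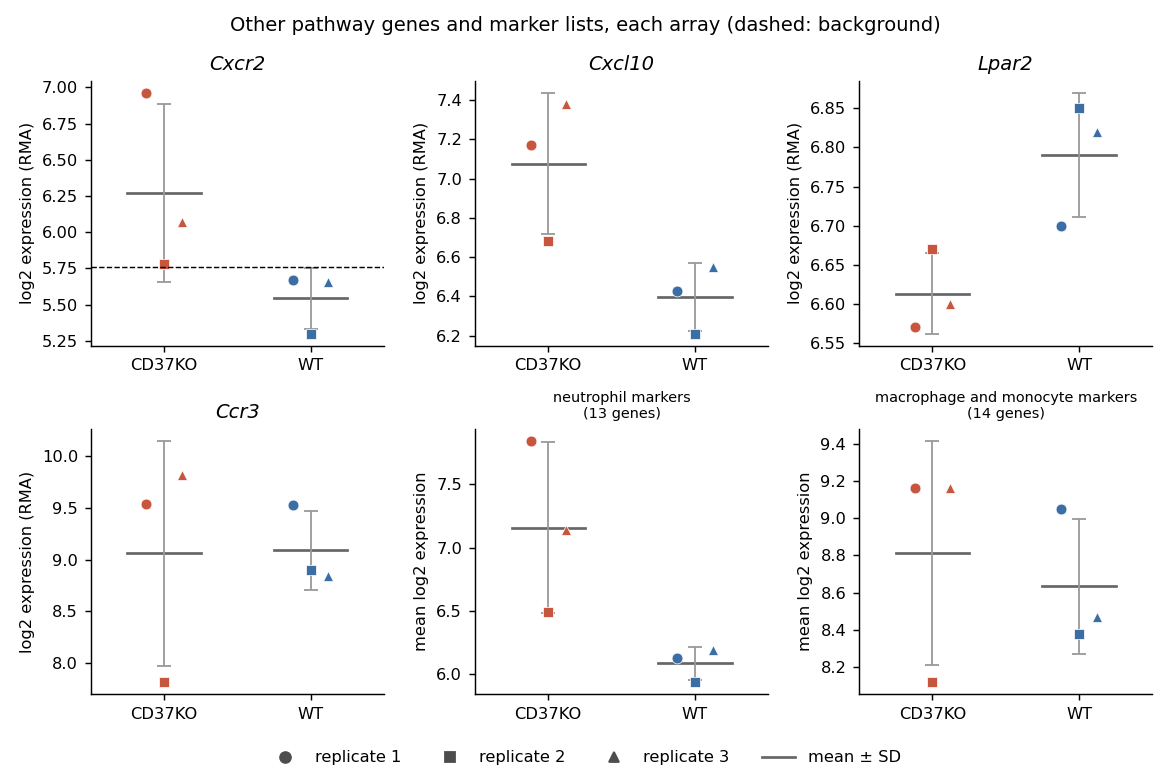
Log2 expression (RMA) of Cxcr2, Cxcl10, Lpar2 and Ccr3, and the mean log2 expression of the neutrophil and the macrophage and monocyte markers, in the 3 CD37KO arrays (red, left) and the 3 WT arrays (blue, right). Bars give the mean ± SD and the dashed line background. The CD37KO arrays lie above the WT arrays for Cxcr2, Cxcl10 and the neutrophil markers, below them for Lpar2, and overlap them for Ccr3 and the macrophage markers.

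Downstream of the receptors, 33 genes of signalling and desensitisation were measured, all above background in every array, and 0 had an unadjusted p under 0.05 (limma). Their median log2 difference was -0.03. The 2 with the smallest p were Rap1b, a small GTPase that activates integrins, and Rgs18, a regulator of G protein signalling. Rap1b read 12.16, 12.19 and 12.05 in CD37KO arrays, against 12.22, 12.35 and 12.19 in WT arrays, without overlap by a gap of 0.005 (log2 difference -0.13, unadjusted p = 0.114, adjusted p = 0.801, limma). For Rgs18 the log2 difference was -0.18 (unadjusted p = 0.117, adjusted p = 0.801, limma). The G protein subunit Gnai2, through which most of these receptors signal, averaged 11.39 ± 0.030 in CD37KO and 11.38 ± 0.177 in WT, and Gna13, the subunit behind S1pr2 confinement, 11.70 ± 0.103 in CD37KO and 11.70 ± 0.090 in WT (SD, n = 3 each; both chosen after their values were seen).

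All 8 regulators of receptor expression or surface level were above background in every array, and 0 had an unadjusted p under 0.05 (limma). Their median log2 difference was -0.06. Cd69, an early activation protein that takes S1pr1 off the cell surface, read 12.03, 12.00 and 11.99 in CD37KO arrays, against 12.03, 12.12 and 12.18 in WT arrays. The groups stood apart by 0.006, and the log2 difference was -0.11 (unadjusted p = 0.127, adjusted p = 0.801, limma). Bcl6, the transcriptional repressor of germinal centre B cells, had a log2 difference of -0.09 (unadjusted p = 0.212, adjusted p = 0.817, limma). Klf2, the transcription factor that drives S1pr1 expression in lymphocytes, averaged 10.51 ± 0.126 in CD37KO and 10.48 ± 0.037 in WT (SD, n = 3 each; chosen after its values were seen).

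Markers of other cell types were at different levels. T cell markers averaged 5.71 to 5.77 in CD37KO and 5.77 to 5.86 in WT, with Cd3d, Cd3g and Themis below background in every array. The NK cell list, whose cells use Cxcr3, averaged 5.64 to 5.81 in CD37KO and 5.73 to 6.11 in WT, with Klrb1c and Klrk1 below background. Dendritic cell markers averaged 5.63 to 5.78 in CD37KO and 5.75 to 5.80 in WT, and erythroblast markers, with 3 of 7 measured, 5.49 to 5.83 in CD37KO and 5.52 to 5.77 in WT. Stromal and endothelial markers averaged 6.28 to 6.38 in CD37KO and 6.45 to 6.54 in WT, so that every CD37KO array was below every WT array. Over all single genes, 7.57% had that order. Of 9 such markers, 4 were below background in every array, Cdh5 and Kdr among them. At an unadjusted p under 0.05, 2 (Igfbp7 and Kdr) were lower in CD37KO (limma), beside 2.99% of all genes. At an adjusted p under 0.05 the count was 0 (limma). Igfbp7, which was above background, read 7.79, 7.68 and 7.51 in CD37KO arrays, against 8.78, 8.28 and 8.06 in WT arrays (log2 difference -0.71, unadjusted p = 0.00254, adjusted p = 0.801, limma). The next largest log2 difference of the stromal and endothelial list was that of Kdr, at -0.192. In the T cell, NK cell and dendritic cell lists, 1 gene each was lower in CD37KO at an unadjusted p under 0.05 (limma), beside 2.99% of all genes. These were Cd8b1, Nkg7 and Siglech, each with an adjusted p of 0.801 (limma). Plasma cell markers averaged 8.10 to 8.25 in CD37KO and 8.04 to 8.14 in WT, with 5 of 6 above background in every array. Btk, Fcmr, Il4ra, Plxnd1, Dtx1, Asb2 and Igfbp7 were chosen after their values were seen. So were Elane, Lyz2, Cx3cr1, Cd8b1, Nkg7 and Siglech.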

How the data were processed

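RNA of spleen B cells was measured on 1 Affymetrix mouse gene array for each of 3 CD37KO and 3 WT mice. Values were used as deposited, on the log2 scale, after RMA by the authors, a method of background correction, between-array normalization and probe summary. RMA and the build mm8 are named in the submitters' processing notes, and its software is not given in the sources used. Of 35361 probe sets, 21780 named a single gene, 1605 several and 11976 none in the annotation used. Symbols were updated through Entrez Gene IDs with the GRCm38.p6 gene table (91 probe sets had an ID not found there). Each gene was read from its brightest probe set (mean of 6 arrays), with no filter on dim genes. Background was the 95th percentile of 1027 olfactory receptor genes.

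CD37KO was compared with WT with lmFit and eBayes of limma 3.58.1 (R 4.3.3). Tests were two-sided, p-values were adjusted over 19935 genes by Benjamini-Hochberg, and the threshold was 0.05. The script was tested on simulated data. The number of arrays limits the precision. Alternatives changed the normalization, the probe set rule, the background filter, the variance model, array weights, the replicate block and the arrays used.

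The receptors and lists were chosen with earlier results of these data known. Genes named are every receptor, Cd37, of each pathway list those with an unadjusted p under 0.05 or otherwise the 2 with the smallest p among those above background in every array, and up to 3 of each marker list; others are said to be chosen after their values were seen.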

Additional observations from a re-analysis of the deposited data

How the results depend on the processing

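No receptor had an adjusted p under 0.05 (limma) under any alternative. Ccr7, Gpr183 and S1pr1 were lower in CD37KO under all 14 alternatives. The probe set rule, the background filter, the variance models and the replicate block could not change these differences, only their p-values. Over all genes the 11 calls became 3 with ordinary least squares, 19 with array weights and 4 with the replicate block, and 4 to 14 when each array was left out in turn. Receptors at an unadjusted p under 0.05 numbered 0, and 0 to 1 with an array left out. Pathway genes higher in CD37KO at an unadjusted p under 0.05 numbered 2, against 1 among genes above background only, 1 with trend and robust eBayes, 1 with ordinary least squares, 5 with array weights, 4 with the replicate block, and 2 to 8 with an array left out. Those lower numbered 1, against 0 with trend and robust eBayes, 4 with array weights, and 0 to 7 with an array left out. The shares over all genes at an unadjusted p under 0.05 (limma) are not given for the alternatives. The log2 difference of Cnr2 was 0.0777 with array weights. With an array left out, differences that changed sign ranged from -0.156 to 0.0056 for Cxcr5, -0.0109 to 0.0928 for Cxcr4, -0.0663 to 0.164 for Ccr6, -0.185 to 0.0182 for S1pr4, -0.188 to 0.0236 for Cnr2 and -0.0074 to 0.0887 for Cxcr3. The cause was not tested. Cxcr3 has no value where genes at background are left out. Deviations of same-numbered arrays from their group means correlated at 0.302, 0.104 and -0.121, so the numbers were not taken as pairs; the replicate block called 0 receptors. With 8 of 9 receptors well above background, a level near background limits only Cxcr3. Limits at bright levels were not examined.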
